A study of Xenopus laevis with 111 samples.

Results

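Torin1 was compared with its vehicle DMSO across the first days after spinal cord transection in *Xenopus laevis* tadpoles. The comparison used the 6 libraries of the Torin1 experiment, out of 111 libraries in the series, and the other 105 came from a time series without drug. All 6 libraries were mRNA-seq of the caudal section of spinal cords from tadpoles at NF stage 50, and every animal had been transected. After surgery, animals were kept in Torin1 or in DMSO for the first 24 h and then without drug. Cords were collected at 1, 2 and 4 days post transection (dpT), that is at 24, 48 and 96 h, with 1 library per treatment and day, each made from a pool of animals. The 3 DMSO libraries (transected, vehicle) were the controls, and the experiment held no sham or untouched animals, so the drug was read on injured cords alone. Libraries of 1 dpT were taken at the end of the exposure, and those of 2 and 4 dpT after it.

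mTOR is a kinase that couples nutrients and growth factors to cell growth. In its first complex, mTORC1, it promotes protein, lipid and nucleotide synthesis and restrains autophagy, and in its second complex it acts on cell survival and the cytoskeleton. Torin1 occupies the ATP site of the kinase and therefore blocks both complexes. *X. laevis* tadpoles regenerate the cord from cells that line the central canal, a process in which quiescent progenitors enter the cell cycle in the days after the lesion.

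The question was which part of the drug's effect on RNA was common to the 3 days. Each library was a table of RSEM expected counts for the same 45099 gene models. Library totals ran from 21.2 M expected counts in the Torin1 library of 1 dpT to 32.5 M in the DMSO library of 4 dpT, and between 32484 and 33583 models had a count. The 27069 models with at least 10 counts in at least 3 of the 6 libraries were tested. The models carry identifiers without gene symbols, none of which matched the gene table at hand, so pathway lists could not be applied, the tissue was not checked against its markers, and no model is given a name or a role here. A difference is the log2 ratio of CPM (read counts relative to library size, scaled by the trimmed mean of M values), Torin1 minus DMSO. In bulk RNA of this kind, fewer cells of a type and less RNA per cell cannot be told apart.

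No gene model passed the test of an effect common to the 3 days. With day as a block, edgeR's quasi-likelihood test called 0 of 27069 models at an adjusted p under 0.05 (0%), and the smallest adjusted p was 0.584. At an unadjusted p under 0.05 there were 673 models, which is 2.49% where 5% is the nominal share. Of these, 254 were higher with Torin1 (0.938% of the models tested) and 419 were lower (1.55%). Their median differences were 0.53 and -0.85 on the log2 scale, and 661 of the 673 had the same direction on all 3 days, which the test itself favours, since it takes the days as replicates. The low side was the longer one at smaller p, with 48 higher and 122 lower at p under 0.01, and 3 higher and 25 lower at p under 0.001. This excess of lower models depended on the days used. At an unadjusted p under 0.05, edgeR's test without 1 dpT gave 1643 higher and 1449 lower models. Without 2 dpT it gave 324 higher and 255 lower, and without the last day 153 higher and 301 lower. Whether the count filter or library depth shaped the excess was not tested. limma-trend also called 0 models, whereas the Wald test of DESeq2 called 39, of which 9 were higher and 30 lower.

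The 3 days stood in for replicates in this test, so an effect that differs between days counts as error. With day as block, the biological coefficient of variation common to all models was estimated at 0.161, on 2 residual degrees of freedom. Since the libraries were pools without replicates within a day, the p-values measure agreement between days and not the spread between animals.

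The size of the difference between Torin1 and DMSO was greatest at 1 dpT and smaller on each later day. The standard deviation of the log2 difference over the 27069 models was 0.527 at 1 dpT, 0.395 at 2 dpT and 0.33 at 4 dpT. At 1 dpT, 795 models were at least 2-fold higher and 962 at least 2-fold lower (6.49% together). At 2 dpT the numbers were 309 and 529 (3.1%), and at 4 dpT they were 225 and 297 (1.93%). Among the 14449 models with a mean of at least 10 CPM, 2-fold differences numbered 171 higher and 253 lower at 1 dpT, 29 and 44 at 2 dpT, and 12 and 13 at 4 dpT. With 1 library on each side, these counts have no replicate check. The Torin1 library of 1 dpT was also the shallowest of the 6. It stood apart on the first principal component (34.8% of the variance), at -60.9 where the others lay between -7.7 and 30. On the second (26.1%), the DMSO library of 1 dpT was the highest, at 40.4 where the others lay between -36.9 and 25.8.

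The direction of the difference at 1 dpT was more often opposite to that of later days than shared with them. Of the 8 possible patterns over the 3 days, the most frequent were lower at 1 dpT and higher at 2 and 4 dpT, with 4990 models (18.4%), and its mirror image, higher at 1 dpT and lower at 2 and 4 dpT, with 4889 models (18.1%). These patterns together held 9879 models (36.5%). The same direction on all 3 days was seen in 5827 models (21.5%), of which 2919 were higher and 2908 lower. The plot of the patterns shows the 3 days side by side.

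**Figure D1:**
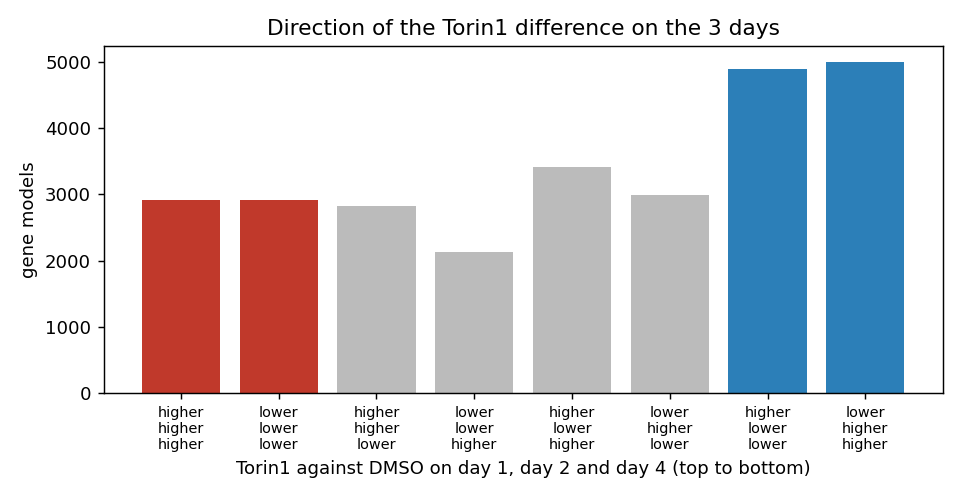
Number of gene models (vertical axis, from 0) for each pattern of the Torin1 difference, with day 1, day 2 and day 4 read from top to bottom under each bar. Red bars are models with 1 direction on all 3 days (2919 higher, 2908 lower), and blue bars, the tallest, are models in which day 1 was opposite to both later days (4889 and 4990).

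Across gene models, which are not independent replicates, the differences of 1 and 2 dpT had a Pearson correlation of -0.153, those of 1 and 4 dpT of -0.039, and those of 2 and 4 dpT of 0.236. Among the models with at least 10 CPM the same values were -0.447, -0.189 and 0.346. No library was shared between days. The models that were at least 2-fold lower at 1 dpT had a median difference of 0.21 at 2 dpT and 0.13 at 4 dpT, and 38.6% of them were lower at 2 dpT where 49.3% of all models were. At 2 dpT, 95 of these 962 models were at least 2-fold lower again and 50 at least 2-fold higher. Among all models, 1.95% were at least 2-fold lower and 1.14% at least 2-fold higher on that day. At 4 dpT the numbers were 68 and 20, against 1.1% and 0.831% of all models. The models that were at least 2-fold higher at 1 dpT had medians of -0.24 and -0.06 on the later days. Of these 795, 54 were at least 2-fold higher again and 66 at least 2-fold lower at 2 dpT, and 33 and 26 at 4 dpT. The shares of all models just given are the background for these counts too. In contrast, of the 529 models at least 2-fold lower at 2 dpT, 72.8% were lower at 4 dpT too, with a median of -0.39, against 50.3% of all models.

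**Figure D2:**
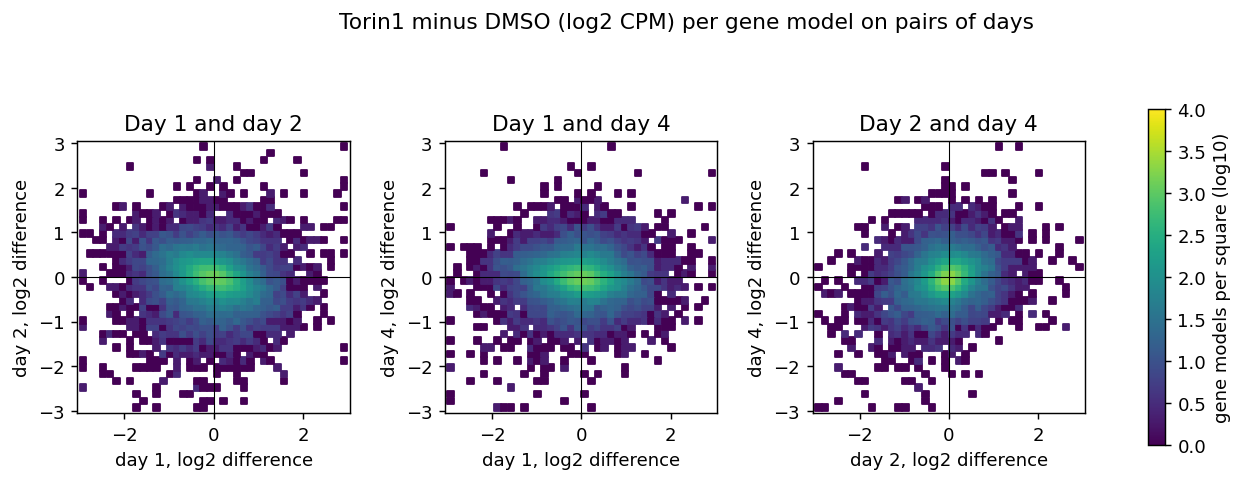
Log2 CPM difference, Torin1 minus DMSO, of each of 27069 gene models on 2 days per panel, with colour giving the number of models per square on a log10 scale and values beyond 3 drawn at the edge. The cloud tilts downward for days 1 and 2 (Pearson correlation -0.153) and upward for days 2 and 4 (0.236).

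With the other 5 libraries, the Torin1 library of 1 dpT had Spearman correlations of expression over models from 0.9744 to 0.9831. Some pairs without it fell in that range, such as the Torin1 library of 2 dpT with the DMSO library of 4 dpT (0.9824). The DMSO library of 1 dpT correlated less with the Torin1 library of its own day (0.9776) than with the DMSO libraries of 2 and 4 dpT (0.9799 and 0.981) or the Torin1 libraries of those days (0.9879 and 0.9873). The pairs of 2 dpT and 4 dpT correlated at 0.9894 and 0.9931.

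A small number of models kept a large difference on every day. A difference of at least 0.5 on the log2 scale on all 3 days was reached by 620 models (2.29% of the models tested). Of these, 214 (34.5%, against 21.5% of all models) had 1 direction, 58 of them higher and 156 lower. Another 240 had 1 dpT opposite to both later days, a pattern that 36.5% of all models had. At 2-fold the order turned. Of 56 models (0.207%) with at least a 2-fold difference on every day, 33 (58.9%) had 1 direction and 15 had 1 dpT opposite to both later days. The 33 were 6 models that were higher (0.0222% of the models tested) and 27 that were lower (0.0997%). Some of the 27 passed the count filter only through the 3 DMSO libraries, and none of the 6 through the Torin1 libraries alone. Xelaev18035483m.g, for example, had 14, 96 and 17 counts with DMSO and 2, 6 and 0 with Torin1. The Torin1 library also had fewer counts than the DMSO library of each day. Whether the filter or depth shaped the split of 6 and 27 was not tested. In the 6 higher models, the log2 differences ran from 1.21 to 4.15 at 1 dpT, from 1.02 to 1.98 at 2 dpT and from 1.02 to 2.38 at 4 dpT. In the 27 lower models they ran from -5.08 to -1.01, from -3.6 to -1.01 and from -3.09 to -1.01. These models were rarely abundant, with a median of 2.65 CPM in the higher and 1.23 CPM in the lower set, where the median over all models was 11.4 CPM. The share of models with an unadjusted p under 0.05 was likewise 4.69% under 1 CPM, 3.43% from 1 to 10 CPM, 1.38% from 10 to 100 CPM and 1.55% above.

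For 4 models, per-library levels are given here to show the data behind the test. The 4 were picked after their values were seen, as the smallest p in each direction. Each had to have 1 direction on all 3 days and a mean of at least 1 CPM. None of them passed edgeR's test over the 3 days. Xelaev18038146m.g was at 27.7 CPM with DMSO and 64.5 CPM with Torin1 at 1 dpT, at 20 and 59.2 CPM at 2 dpT, and at 6.86 and 15.9 CPM at 4 dpT. Its level went down from day to day in both treatments and was higher with Torin1 on each day, by 1.22, 1.56 and 1.2 on the log2 scale. The common difference was 1.33 with a standard error of 0.12 (edgeR quasi-likelihood test, p = 3.57e-05, adjusted p = 0.584).

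Xelaev18016263m.g was at 1.74 CPM with DMSO and 26.9 CPM with Torin1 at 1 dpT, at 0.704 and 6.42 CPM at 2 dpT, and at 0.308 and 0.617 CPM at 4 dpT. Its difference shrank over the days, from 3.9 to 3.07 to 0.86 on the log2 scale, and at 4 dpT it rested on 10 and 19 counts. The fitted difference over the 3 days was 3.22 with a standard error of 0.48 (edgeR quasi-likelihood test, adjusted p = 0.887). That value lies nearer to those of 1 and 2 dpT than to that of 4 dpT.

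Xelaev18004185m.g was at 21.2 CPM with DMSO and 7.63 CPM with Torin1 at 1 dpT, at 58.4 and 17.9 CPM at 2 dpT, and at 72.7 and 32.6 CPM at 4 dpT. Both treatments showed more of this RNA on later days, and the Torin1 library of each day lay below the DMSO library of that day, by 1.47, 1.71 and 1.15 in log2 units. The common difference was -1.44 with a standard error of 0.14 (edgeR quasi-likelihood test, adjusted p = 0.584).

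Xelaev18034081m.g was at 0.95 CPM with DMSO and 0.0454 CPM with Torin1 at 1 dpT, at 6.79 and 1.14 CPM at 2 dpT, and at 2.99 and 0.39 CPM at 4 dpT. The Torin1 value of 1 dpT was a single count against 29, which gives a ratio of 0.0478 with a 95% exact counting interval from 0.00117 to 0.288, and 32 against 193 and 12 against 97 counts stood behind the differences of -2.5 at 2 dpT and -2.73 at 4 dpT. The common difference was -2.85 with a standard error of 0.3 (edgeR quasi-likelihood test, adjusted p = 0.584). The 3 models other than Xelaev18016263m.g passed with DESeq2's Wald test, at adjusted p of 7.1e-09 for Xelaev18038146m.g, 1.2e-09 for Xelaev18004185m.g and 6.74e-06 for Xelaev18034081m.g, while that of Xelaev18016263m.g was 0.146. Without 1 dpT the same 3 passed edgeR's quasi-likelihood test, at adjusted p of 0.00127, 0.0166 and 0.00335, and Xelaev18016263m.g was at 0.0807. Both tests reuse libraries whose values picked these models, so passing is favoured by the choice and is no separate support.

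**Figure D3:**
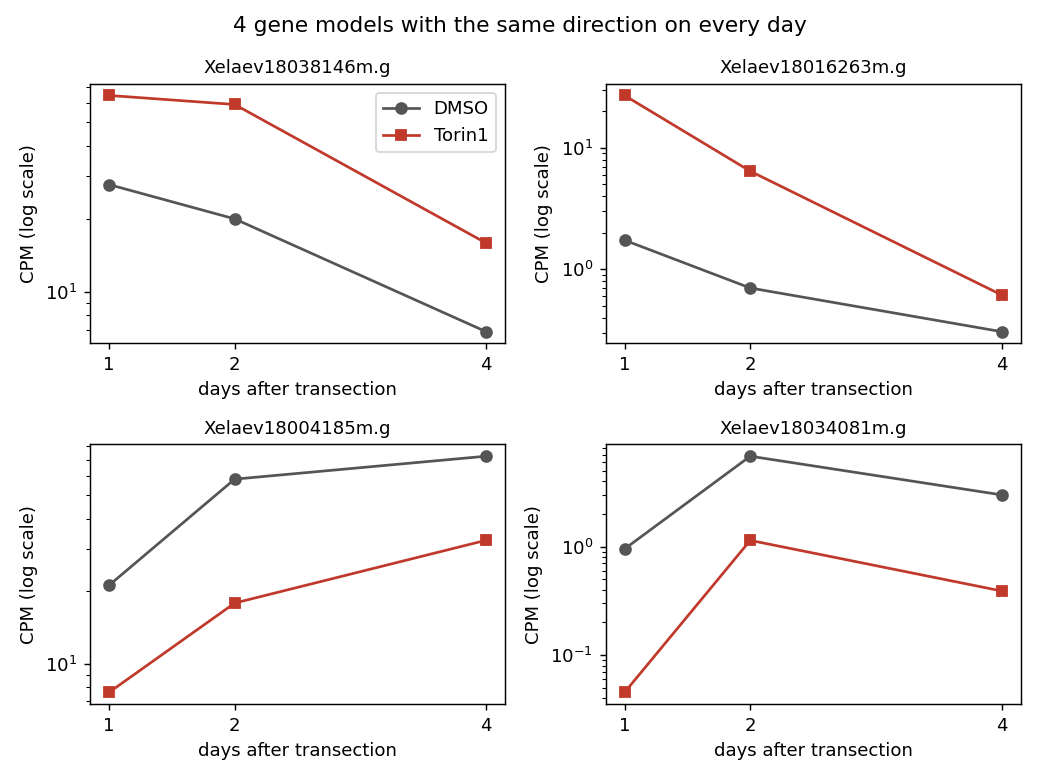
CPM on a log axis against days after transection for 4 gene models, with 1 library per point (grey circles DMSO, red squares Torin1). The treatments do not cross in any panel, since models were picked only if they had 1 direction on every day. Xelaev18016263m.g narrows from 26.9 against 1.74 CPM on day 1 to 0.617 against 0.308 CPM on day 4.

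Leaving out 1 dpT changed the count. With the libraries of 2 and 4 dpT, edgeR's quasi-likelihood test called 134 models at an adjusted p under 0.05, of which 53 were higher with Torin1 (0.196% of the models tested) and 81 lower (0.299%). That fit has 1 residual degree of freedom. Leaving out 2 dpT or 4 dpT instead gave 0. The day left out allows these calls to be read in libraries that did not enter their test. Those libraries did take part in the count filter, which used all 6. Of the 53 higher models, 12 (22.6%) were higher at 1 dpT too, where 51.9% of all models were. On that day 27 of the 53 were at least 2-fold lower, against 3.55% of all models. Another 6 were at least 2-fold higher, against 2.94% of all models. The 53 had a median of -1.1 at 1 dpT and a range from -2.87 to 4.15. The 81 lower models were lower at 1 dpT in 54 cases (66.7%, against 48.1% of all models), with a median of -0.34 and a range from -5.08 to 1.9. Of the 81, 21 were at least 2-fold lower and 10 at least 2-fold higher on that day. Thus, 66 of the 134 kept their direction at 1 dpT and 68 had the opposite one.

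Relative to each model's mean over the 6 libraries, the 53 models had a median of 0.42 in the DMSO library of 1 dpT and then of -0.23 and -0.35 in those of 2 and 4 dpT. With Torin1 they were at -0.59 at 1 dpT, 0.62 at 2 dpT and 0.21 at 4 dpT. The values of 2 and 4 dpT were used to choose the models, so the order of days within a treatment is partly set by that choice. The 81 models were at -0.47, 0.76 and 1.13 with DMSO and at -0.82, -0.46 and 0.05 with Torin1.

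**Figure D4:**
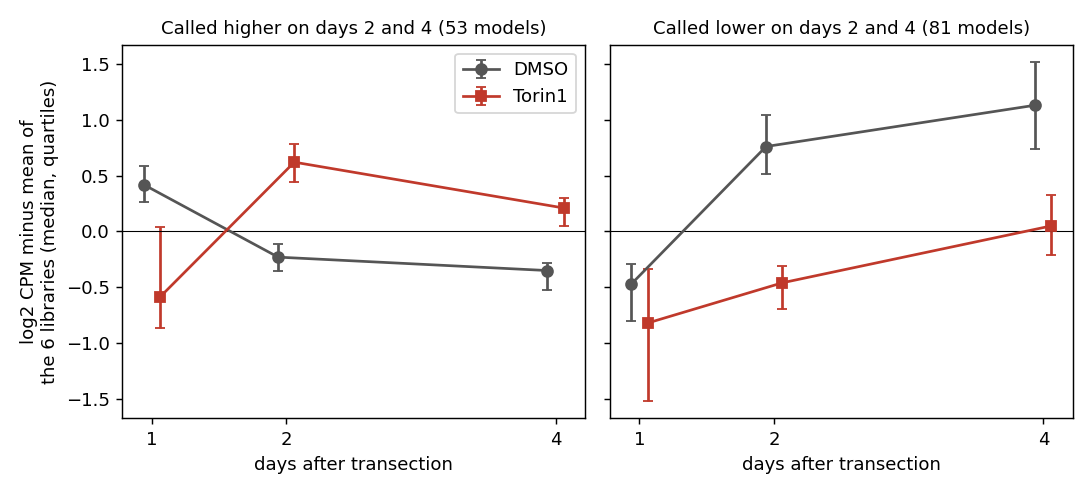
Median over models, with quartiles as bars, of log2 CPM minus the model's mean over the 6 libraries, against days after transection (grey circles DMSO, red squares Torin1), for the 53 models called higher and the 81 called lower on days 2 and 4. The values of days 2 and 4 chose the models, and day 1 entered only the count filter. On day 1 the 53 models lie at 0.42 with DMSO and -0.59 with Torin1.

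The difference between 1 dpT and the later days was set against the disagreement between 2 and 4 dpT on all models, in a contrast added after the data had been seen. edgeR's quasi-likelihood test of the Torin1 difference at 1 dpT against that at 2 and 4 dpT called 3235 models at an adjusted p under 0.05 (12%), on 1 residual degree of freedom. The contrast sets a single pair of libraries, which had the widest spread of differences, against 2 other pairs, so it says how far the pair of 1 dpT lay from the others and not whether another pool of that day would. In 1786 models (6.6%) the difference was further down at 1 dpT, with medians of -0.72, 0.3 and 0.17 on the 3 days. In 1449 models (5.35%) it was further up, with medians of 0.69, -0.23 and -0.13. With library size alone as the scaling, 2309 models were further down and 1216 further up. The sign at 1 dpT was opposite to the mean of the later days in 1682 of the 1786 and in 1327 of the 1449, against 16209 of all 27069 models, and the contrast itself favours opposite signs. DESeq2's Wald test called fewer, 469 and 326. With 1 library per treatment and day, the effect of Torin1 at 1 dpT and anything particular to the pool or the library of that day cannot be told apart. None of the 4 models above passed this test, with edgeR adjusted p from 0.249 to 0.924.

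Transected and sham-operated cords of the time series, which received no drug and shared no library with the Torin1 experiment, gave a second readout of the same models. In these, edgeR's quasi-likelihood test was run over 36 transected and 36 sham libraries paired by series and hour, in windows up to 21 h, and 27051 of the models were tested in both experiments. Hours of the same animal batch stood as replicates in this test. Its calls therefore rest largely on agreement between hours and do not measure the spread between batches. At 16 to 21 h after surgery, 5997 of them were higher in transected cords (22.2%) and 6152 lower (22.7%).

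The models that injury moved at 16 to 21 h went in opposite directions with Torin1 at 1 dpT and on the later days. The 5997 models higher after transection had a median Torin1 difference of -0.27 at 1 dpT, 0.17 at 2 dpT and 0.1 at 4 dpT. At 1 dpT 77.3% of them were lower with Torin1, where 48.1% of all models were, and at 2 and 4 dpT 20.9% and 27.1% were, where 49.3% and 50.3% of all models were. The 6152 models lower after transection had medians of 0.24, -0.13 and -0.07. The same direction on all 3 days was seen in 17.3% of the former and 16.8% of the latter, below the 21.5% of all models. Models higher after transection at 3 to 6 h, of which there were 920, differed from these in having positive medians on all 3 days, of 0.07, 0.12 and 0.15. At 1 dpT a positive median was not particular to them. The 431 models lower after transection in that window had medians of 0.11, -0.04 and -0.05. The models called higher or lower at 0.5 to 2 h had medians of 0.12 and 0.08 at 1 dpT.

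**Figure D5:**
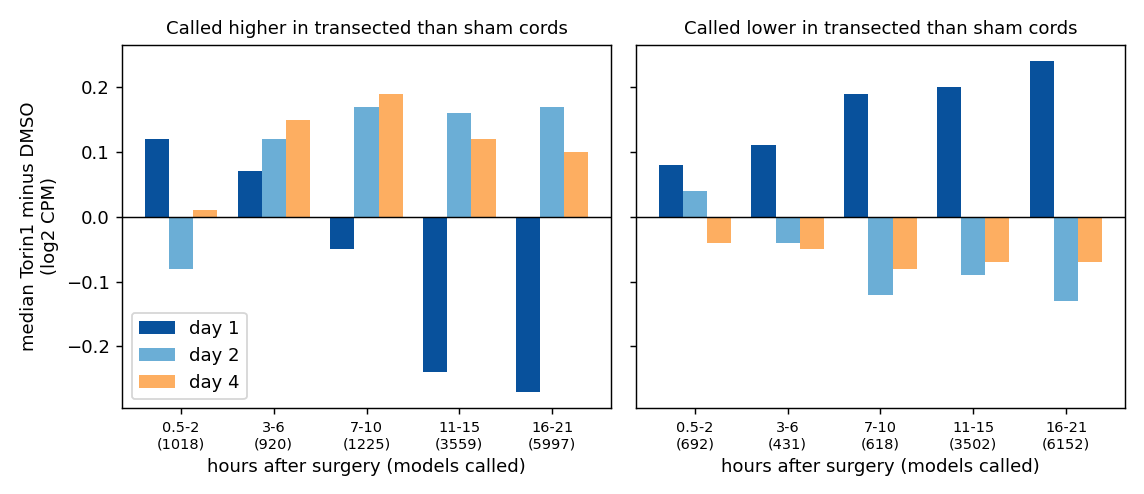
Median Torin1 minus DMSO (log2 CPM) on days 1, 2 and 4, for models called higher (left) or lower (right) in transected than in sham cords, by window after surgery, with the number of models in brackets. In the 16 to 21 h window the bar of day 1 (-0.27 left, 0.24 right) points away from those of days 2 and 4.

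Most of the models called in the contrast of 1 dpT with the later days were also called for injury at 16 to 21 h, where 22.2% of all models were higher and 22.7% lower. Of the 1786 models with a lower Torin1 difference at 1 dpT, 1405 (78.7%) were called higher in transected cords and 40 (2.24%) lower. Of the 1448 measured models with a higher Torin1 difference at 1 dpT, 1139 (78.7%) were called lower after transection and 44 (3.04%) higher.

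The 53 models called higher on 2 and 4 dpT were in most cases also higher after injury, and more so in later windows. At 16 to 21 h, 43 of them (81.1%, against 22.2% of all models) were higher in transected cords and 0 lower, with a median log2 difference of 1.55. Their median went up from window to window, from -0.01 at 0.5 to 2 h through 0.34, 0.57 and 0.86. Of the 41 that were lower with Torin1 at 1 dpT, 38 were called higher after injury, and of the 12 that were higher, 5 were. Of the 81 lower models, 35 (43.2%, against 22.7% of all models) were lower in transected cords at 16 to 21 h and 4 (4.94%) were higher, with a median of -0.33.

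The models with a small unadjusted p over the 3 days were called for injury less often than these at 16 to 21 h, a difference that was not tested. Their median levels were 6.61 CPM in the higher and 3.04 CPM in the lower models, where the median over all models was 11.4 CPM. The part of level in this difference was not tested either. Of the 254 models higher with Torin1 at an unadjusted p under 0.05, 93 (36.6%, against 22.2% of all models) were higher in transected cords at 16 to 21 h and 21 (8.27%, against 22.7%) lower. In earlier windows, 68 (26.8%) were called higher at 3 to 6 h against 3.4% of all models, and 72 (28.3%) at 7 to 10 h against 4.53%. Of the 419 lower models, 49 (11.7%, against 22.2%) were higher and 108 (25.8%, against 22.7%) lower at 16 to 21 h. At 0.5 to 2 h, 63 of the 419 (15%) were called higher in transected cords and 1 lower, where 3.76% of all models were called higher.

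Among the 6 models at least 2-fold higher on every day, 4 were called higher in transected cords at 3 to 6 h (3.4% of all models), with a median of 1.82, and 3 were at 16 to 21 h (22.2% of all models). Some of the 27 that were at least 2-fold lower had passed the count filter through the DMSO libraries alone. Of all 27, 13 (48.1%, against 3.76% of all models) were called higher at 0.5 to 2 h, with a median of 1.42. In the next window the median was -0.01 and 0 were called higher, and at 16 to 21 h 3 of the 27 (11.1%, against 22.7%) were called lower.

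The 4 models described above differed in how they responded to injury. Here n counts libraries, which are hours of only a few animal batches, so the SD is not a spread between batches. The standard errors and p-values likewise take hours of the same batch as replicates. Xelaev18038146m.g was at 108 ± 16 CPM (SD, n = 9, from 71.1 to 126) in transected and at 9.19 ± 7.11 CPM (from 3.97 to 24.7) in sham cords at 16 to 21 h, with no overlap. Its log2 difference was 3.78 with a standard error of 0.25 (edgeR quasi-likelihood test, adjusted p = 5.01e-14), and it was already 3.09 at 3 to 6 h (adjusted p = 5.45e-08). This model rose after injury from the 3 to 6 h window on.

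Xelaev18016263m.g was at 12.1 ± 2.91 CPM (SD, n = 9, from 7.33 to 17.5) in transected and at 0.75 ± 0.535 CPM (from 0.122 to 1.51) in sham cords at 16 to 21 h, again with no overlap. Its log2 difference was 4.07 with a standard error of 0.48 (edgeR quasi-likelihood test, adjusted p = 2.83e-08). In the first window the groups overlapped, and 1 of 10 sham libraries reached 74.2 CPM.

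Xelaev18004185m.g showed the same level in both groups at 16 to 21 h within their spread, 21.8 ± 3.04 CPM in transected and 21.8 ± 4.76 CPM in sham cords (SD, n = 9). Its log2 differences lay between -0.19 and 0.17 over the windows, and the edgeR adjusted p between 0.319 and 0.972. Xelaev18034081m.g was at 10.7 ± 6.66 CPM (SD, n = 10, from 2.9 to 24.5) in transected and at 3.55 ± 2.02 CPM (from 1.2 to 7.01) in sham cords at 0.5 to 2 h, so that the groups overlapped. It rose in that window by 1.51 on the log2 scale with a standard error of 0.33 (edgeR quasi-likelihood test, adjusted p = 0.00384). At 16 to 21 h it was below 2 CPM in every library of both groups, with a log2 difference of 0.09 (adjusted p = 0.91).

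Length moved slightly with the difference at 1 and 2 dpT. The median log2 difference of model length quintiles went from -0.03 in the shortest to 0.07 in the longest at 1 dpT, from -0.04 to 0.04 at 2 dpT and from 0.01 to 0 at 4 dpT. The part of RNA quality and depth in the results of 1 dpT was not tested.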

How the data were processed

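Poly(A) mRNA-seq libraries came from an Illumina TruSeq kit (v2) that does not mark strand. Per the labels and the study's methods, the authors mapped reads of the Torin1 experiment to a *X. laevis* model transcriptome with Bowtie2 and RSEM, and those of the time series with Bowtie and RSEM (the submitters' processing notes name CASAVA 1.7, Bowtie and RSEM), and deposited 1 table per library with an expected count, a TPM and an FPKM per gene model. RSEM divides reads that fit several models, so values of near-identical homeologs are uncertain.

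Expected counts were rounded. The deposited TPM and FPKM values were not tested, and FPKM served for the model length only. Models with at least 10 counts in at least 3 of the 6 libraries were kept, which is 60% of those listed. Torin1 was compared with DMSO in edgeR 4.0.16 (R 4.3.3) with trimmed mean of M values scaling and a robust quasi-likelihood F-test, with day as block and Benjamini-Hochberg adjustment over all models tested. Differences per day were taken from CPM with a prior count of 2, with no test. Standard errors given with edgeR's tests are the size of the log2 difference divided by the square root of the F statistic. Transected and sham libraries of the time series were compared in 5 windows with the pair as block, on models that reached 5 counts at no fewer than 4 time points of a condition. The test was checked on simulated counts in which each changed model had the same difference on every day. At a coefficient of variation of 0.161, set the same for every model, it called 89 of 100 models changed 2-fold. In the same run it called 100 of 100 models changed 4-fold, and 13 unchanged models. The check does not cover differences that change between days, a spread that varies between models, or changed models of low level. It therefore does not give the share of common 2-fold differences that the test would call in the real libraries. limma 3.58.1 and DESeq2 1.42.0 were alternatives. A named gene rule and 23 gene lists could not be applied, because none of 45099 identifiers matched the RefSeq gene table, and 4 models were named instead. The members, lists and comparisons were chosen with earlier results of these data known. Libraries of the same day deviated together from their treatment means at 2 and 4 dpT (correlations of 0.251 and 0.368) and only weakly at 1 dpT (0.108). Libraries of different days had correlations from -0.303 to 0.047. Deviations from a treatment mean add up to 0 over its 3 libraries, which favours negative values between days where same-day values are positive. The values between days are therefore no separate support for the pairing. The pairing comes from the day in the labels.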

Additional observations from a re-analysis of the deposited data

Results flagged for a closer look

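Torin1 minus DMSO at 1 dpT differed from that at 2 and 4 dpT in 3235 gene models by edgeR's quasi-likelihood test of the difference itself, which set 1 pair of libraries against 2 pairs on 1 residual degree of freedom. DESeq2's Wald test called 469 further down and 326 further up at 1 dpT.

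Among the named models, 40 groups of 5 to 10 libraries of the time series were examined for a library far from the others, and 7 had one. The rule flags about 1 in 20 groups of independent, normally distributed values. CPM values from different hours need not be such, so the 7 cannot be read against that rate. Xelaev18038146m.g had its highest transected library of 7 to 10 h at 214 CPM, with the next at 103 CPM. Its lowest transected library of 16 to 21 h was at 71.1 CPM, with the next at 99.3 CPM, and its highest sham library of 11 to 15 h was at 12.9 CPM, with the next at 8.16 CPM. Xelaev18016263m.g had its highest transected library of 7 to 10 h at 33.7 CPM against 16.3 CPM in the next, and its highest sham library of 0.5 to 2 h at 74.2 CPM against 4.94 CPM. Its highest sham library of 7 to 10 h was at 0.77 CPM against 0.331 CPM. Xelaev18034081m.g had its highest sham library of 11 to 15 h at 1.27 CPM against 0.527 CPM. Each window spans several hours.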

How the results depend on the processing

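The count of 0 for the effect common to the 3 days stayed at 0 with DESeq2 size factors, library size alone and limma-trend. No filter on low counts, a mean of at least 1 CPM, and the fit without robust moderation also gave 0. A 2-fold minimum on the main fit could only leave 0, so it is no check. The count also stayed at 0 with no replicate block, where 349 models had an unadjusted p under 0.05. DESeq2's Wald test called 39 models (9 higher, 30 lower), all with 1 direction on the 3 days. A likelihood ratio test with an assumed coefficient of variation of 0.2, which changes both the test and the spread and was chosen after seeing the data, called 136 (35 higher, 101 lower), the 4 named models among them. Leaving out 1 day at a time gave 0 to 134 calls, with 0 to 53 higher and 0 to 81 lower, all of them from leaving out 1 dpT. The 4 named models kept their sign in every setting, which their choice favours, since it required 1 direction on all 3 days. Their log2 differences without 1 day ran from 1.2 to 1.41, from 2.53 to 3.61, from -1.61 to -1.31 and from -3.19 to -2.7. For the contrast of 1 dpT with the later days, added after seeing the data, DESeq2's Wald test called 469 models further down and 326 further up. For injury at 16 to 21 h with no replicate block, 3853 of all 27051 models were called higher and 3272 lower, against 5997 and 6152 in the main fit. These totals are the background for the counts that follow. In that fit, 9 of the 254 models higher with Torin1 were called lower, 27 of the 419 lower models higher and 70 lower, and 2 of the 81 lower models of 2 and 4 dpT higher and 22 lower. With the 18 libraries of that window alone, 7 of those 81 were called higher, where 7430 of all 27051 models were. The cause of these differences was not tested. Summing homeologs was not run, since identifiers could not be paired. Depth limits models under 1 CPM, and 1 library per treatment and day limits every comparison.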
